A study of Mus musculus with 8 samples.

Results

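The laminin chains outside laminin-332 and the nidogens were examined in the limbal rim and the corneal button of the mouse eye. They were the 10 genes Lama1, Lama2, Lama4, Lama5, Lamb1, Lamb2, Lamc1, Lamc3, Nid1 and Nid2, matched by their symbols in the deposited table, among 23420 named genes in all. All 10 were found, and all 10 exceeded 3 reads in each library. The table held 1 library of each tissue, so each ratio below compares those libraries and has no replicate check. The mice were wild type animals of the C57BL/6J line, 8 weeks old, and the labels name no treatment. For both groups, eyes were dissected under a microscope into the limbal rim, which is the ring between cornea and conjunctiva, and the corneal button inside it, and the pieces of many eyes were pooled by tissue before RNA was taken. Total RNA was sequenced, so each tissue was measured as a mixture of its cell types, and fewer cells of a type cannot be told apart from less RNA per cell.

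Laminins are large secreted glycoproteins built from 1 α, 1 β and 1 γ chain that join in a coiled coil, and a laminin is named by the numbers of its 3 chains. They polymerize on the cell surface, where integrins and dystroglycan hold them, and nidogens link the laminin network to collagen IV and perlecan to form the basement membrane. The laminin of the hemidesmosomes of stratified epithelia is laminin-332, whose α and β chains are the products of Lama3 and Lamb3. The remaining chains are found in the other basement membranes, those of epithelia, muscle fibers, vessels, nerves and the corneal endothelium.

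Ratios divide the limbal by the corneal value on the log2 scale, from reads that were scaled with size factors recovered from the deposited table. The 95% confidence interval (CI) of a ratio was derived by the exact Clopper-Pearson method from the limbal part of a gene's reads, and each level has an exact Poisson interval. Both cover counting error only, and not variation between animals, dissections or libraries. PCR copies of 1 molecule can be counted more than once, so even the counting error may be larger than these intervals. A gene was called at 2-fold where both libraries held more than 3 reads, the log2 ratio was at least 1 in size and its CI left out 0. Named genes held 26104317 reads in the cornea library and 21182025 in the limbus library. Scaling to these totals would raise every log2 ratio by 0.21, and this is stated wherever it changed a call or a sign of a member. The tissue labels were checked with marker genes. Krt12, the keratin of the differentiated corneal epithelium, had 1137735 corneal and 233324 limbal reads. Krt15 and Krt19, keratins of the limbal and conjunctival epithelium, had 37738 and 1417 corneal reads against 353826 and 30740 limbal ones. Marker genes of other tissues of the eye and of muscle were higher in the limbus library. The summed normalized reads of 9 lens genes were 8.78 times as high in the limbus, those of 6 photoreceptor genes 9.59 times, and those of 10 skeletal muscle genes 31.3 times.

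Of the 10 genes, 4 were called higher in the limbus and 1 was called higher in the cornea. Lama4, Nid2, Lamb2 and Lama2 were the limbal ones and Lamb1 was the corneal one. By the same rule, 14.7% of the 13862 genes that exceeded 3 reads in each library were called higher in the limbus and 8.66% higher in the cornea. These 13862 genes are called all genes below. Without the limit on size, 5 members were limbal and 2 were corneal beyond counting error, against 33.2% and 40.6% of all genes, and the CIs of Lama5, Lamc3 and Nid1 included 0. Over the 10 genes the median was 0.43 on the log2 scale, and that of all genes was -0.05. The members' summed reads were nearly equal, 10569 corneal and 9990 limbal ones, and their log2 ratio was 0.01 (95% CI -0.03 to 0.05). Scaled to total reads the sum was higher in the limbus, at 0.22 (0.18 to 0.26).

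**Figure D1:**
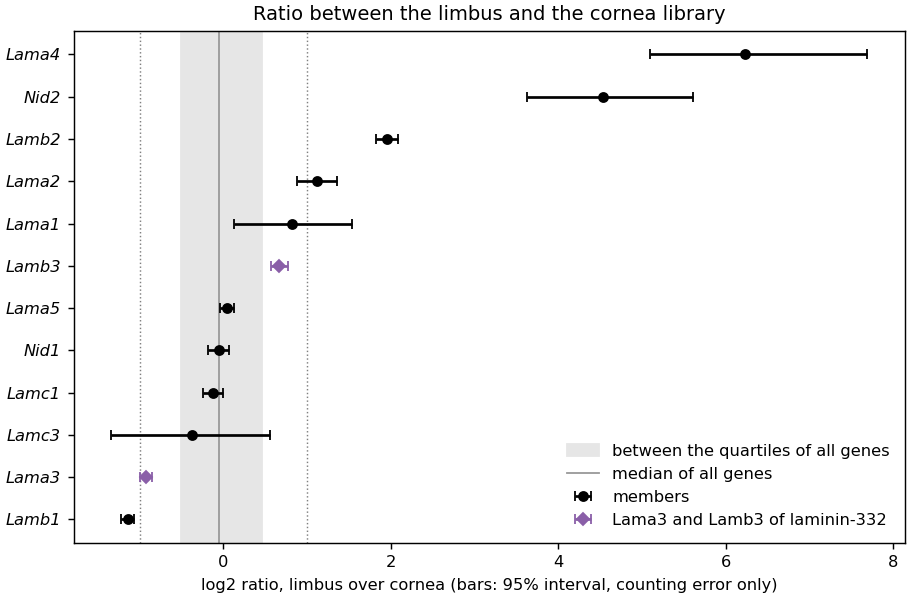
Log2 ratio of limbus over cornea (x axis) for the 10 genes (black circles) and for Lama3 and Lamb3 of laminin-332 (purple diamonds), with bars for the 95% interval of counting error. The grey band holds the genes between the quartiles of all genes (-0.51 and 0.46), the grey line their median and the dotted lines mark 2-fold. Lama4 (6.23) and Nid2 (4.53) lie farthest to the limbal side and Lamb1 (-1.15) is the only gene shown past 2-fold on the corneal side.

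The sequences around a RefSeq transcription start of the most differently distributed β chain genes, and of Lama2, are shown. These genes differed by 2-fold or more and have an entry among the RefSeq promoters of GRCm38.p6. Each window runs from 250 bases before the RefSeq transcription start to 50 bases after it, on the strand of the gene, and capitals mark the GC box GGGCGG or its reverse complement, the element bound by Sp1. Lamb2 is shown from chr9:108479612-108479911 on the plus strand, Lamb1 from chr12:31265043-31265342 on the plus strand and Lama2 from chr10:27616893-27617192 on the minus strand. The Lama2 window lies inside the gene as annotated by GENCODE, whose 5' end is at 27619758. It therefore does not describe the sequence before that outermost start.
Lamb2: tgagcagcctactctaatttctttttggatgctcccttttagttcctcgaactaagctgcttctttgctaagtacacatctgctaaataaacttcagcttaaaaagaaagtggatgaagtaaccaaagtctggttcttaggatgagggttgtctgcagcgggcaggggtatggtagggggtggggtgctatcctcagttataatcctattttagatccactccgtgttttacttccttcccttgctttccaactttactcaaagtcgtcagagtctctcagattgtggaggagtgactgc
Lamb1: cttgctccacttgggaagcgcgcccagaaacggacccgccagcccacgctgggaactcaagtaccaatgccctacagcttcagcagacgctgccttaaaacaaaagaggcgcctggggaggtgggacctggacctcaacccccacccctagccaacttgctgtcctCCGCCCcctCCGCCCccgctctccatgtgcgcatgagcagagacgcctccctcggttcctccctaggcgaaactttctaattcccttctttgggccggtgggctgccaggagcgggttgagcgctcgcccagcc
Lama2: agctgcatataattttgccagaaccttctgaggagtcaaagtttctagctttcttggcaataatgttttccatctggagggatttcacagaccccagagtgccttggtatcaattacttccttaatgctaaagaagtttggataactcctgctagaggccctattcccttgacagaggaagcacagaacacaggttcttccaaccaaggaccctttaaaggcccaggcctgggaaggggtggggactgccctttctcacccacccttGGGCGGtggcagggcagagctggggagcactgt
Lamb2, the limbal β chain gene, had 4 CG dinucleotides and no GC box in this window. Lamb1, the corneal one, had 18 CG dinucleotides and 2 GC boxes. Lama2 had 1 CG dinucleotide and 1 GC box. The median over all 32851 promoters of this length was 7 CG dinucleotides (quartiles 3 and 20), and 35.7% of them held a GC box on either strand. Entries were found for 5 of the 10 genes. The others were Lama5 and Nid1, whose CIs included 0, with 24 and 20 CG dinucleotides and 4 GC boxes and 1. Neither the TATA box TATAAA nor the AP-1 element TGANTCA occurred on either strand in any of the 5 windows, and 13.6% and 7.81% of all promoters held them. None of the 3 motifs contains another, and a match or its absence in this window is a description of the sequence only.

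Among the α chains, which carry the sites for the cell surface receptors, Lama4 differed most. The laminin α4 chain is the α chain of laminin-411 and laminin-421 and is known from the basement membrane of blood vessels. Lama4 (GRCm38 chromosome 10, 38965515 to 39110188, plus strand) had 6 corneal and 422 limbal reads, or 5.80 and 436 normalized reads. This was 75.2-fold higher in the limbus, or 6.23 as a log2 ratio (95% CI 5.10 to 7.69). Lama4 stood at percentile 99.8 of the genes that exceeded 3 reads in each library. This ranking leaves out genes with 3 or fewer reads in a library. Only 6 reads stood behind the corneal value, so the lower end of the interval, 34.2-fold, lies far below the point value. Per kilobase of exon its level was 0.48 (95% CI 0.18 to 1.05) in the cornea, the lowest of the 10 genes, and 36.1 (32.8 to 39.8) in the limbus. Genes of the blood vessel endothelium were higher in the limbus as well. All 10 of that list had a read in both libraries, they summed to 249.6 corneal and 4307 limbal normalized reads, and Pecam1, an adhesion molecule of endothelial cells, had 6 and 831 reads. The part of vessel content in the ratio of Lama4 was not tested.

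Lama2 encodes the α2 chain of laminin-211 and laminin-221, the laminins around muscle fibers and Schwann cells. Lama2 (chromosome 10, 26980036 to 27619758, minus strand) had 214 corneal and 434 limbal reads, or 207 and 449 normalized reads. It was 2.17-fold higher in the limbus with a log2 ratio of 1.12, and the CI of 0.88 to 1.36 reached below 2-fold. Its level per kilobase of exon was 12.7 (11.03 to 14.5) in the cornea and 27.5 (24.9 to 30.2) in the limbus. Skeletal muscle genes were far higher in the limbus, with 496 corneal and 15538 limbal normalized reads in sum over 10 genes, 9 of which exceeded 3 reads in each library and were called at 2-fold. Schwann cell genes summed to 5254 and 9260 normalized reads, of which Mbp made up 4193 and 5680. Limbal and conjunctival epithelial genes were also higher in the limbus, with a sum 5.25 times as high over 7 genes. The paper cites earlier work that placed laminin α2 and β2 chains in the basement membrane of the limbal epithelium. The part of any of these tissues in the ratio of Lama2 was not tested. Exons of Lama2 also share 631 bases with Gm48084, an antisense gene, and whether counting used the strand is not given in the sources used here.

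Lama1 and Lama5 are the α chains best known from epithelial basement membranes, Lama1 early in development and Lama5 broadly in the adult. Lama5 (chromosome 2, 180176373 to 180225859, minus strand) was deeply read, with 2661 corneal and 2566 limbal reads, or 2574 and 2653 normalized reads. Its log2 ratio of 0.04 (95% CI -0.04 to 0.12) was not distinguishable from 0 at this depth, and scaled to total reads it was 0.25 with an interval above 0. Its level per kilobase was 226 (218 to 235) in the cornea and 233 (224 to 242) in the limbus, the highest of the 4 α chains outside laminin-332 in both libraries. Lama1 (chromosome 17, 67697259 to 67822647, plus strand) had 29 corneal and 48 limbal reads, or 28.1 and 49.6 normalized reads. It was higher in the limbus beyond counting error but not called, with a log2 ratio of 0.82 (95% CI 0.13 to 1.54), and scaled to total reads it came to 1.03 and would be called. Lama1 was a low transcript in both tissues, at 2.90 (1.94 to 4.16) and 5.13 (3.78 to 6.80) per kilobase.

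The β chains Lamb1 and Lamb2 showed opposite differences. Lamb1 encodes the β1 chain of laminin-111, laminin-411 and laminin-511, and Lamb2 encodes the β2 chain that takes its place in laminin-121, laminin-221, laminin-421 and laminin-521, known from the neuromuscular junction and the kidney glomerulus. Lamb1 (chromosome 12, 31265234 to 31329644, plus strand) had 4677 corneal and 1978 limbal reads, or 4524 and 2045 normalized reads. It was 2.21-fold higher in the cornea, or -1.15 as a log2 ratio (95% CI -1.22 to -1.07). Scaled to total reads the ratio was -0.94, on the same side but short of 2-fold. Lamb2 (chromosome 9, 108479736 to 108490530, plus strand) had 625 corneal and 2266 limbal reads, or 605 and 2342 normalized reads. It was 3.87-fold higher in the limbus, or 1.95 as a log2 ratio (95% CI 1.83 to 2.08). Lamb1 was the most abundant of the 10 genes per kilobase of exon in the cornea, at 456 (443 to 469), and Lamb2 was the most abundant in the limbus, at 385 (369 to 401). In the other tissue, Lamb1 was at 206 (197 to 215) and Lamb2 at 99.4 (91.8 to 108).

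The balance between these β chains can be read within each library, where the scaling between libraries has no effect. Of the reads of Lamb1 and Lamb2 together, Lamb2 held 11.8% (95% CI 10.9 to 12.7) in the cornea and 53.4% (51.9 to 54.9) in the limbus. Per kilobase of exon it was 17.9% and 65.1%, and with the length of the longest transcript 12.1% and 54.1%. Lamb2 thus made up the smaller part of the pair in the cornea and the larger part in the limbus with each way of counting. As with the limbal α chains, marker genes of several tissues were higher in the limbus along with Lamb2. The limbal and conjunctival epithelial sum was 5.25 times as high in the limbus, and 5 of its 7 genes were called at 2-fold. The earlier work cited for Lama2 placed the β2 chain in the limbal epithelial basement membrane as well. The endothelial and skeletal muscle sums given above were 17.3 and 31.3 times as high in the limbus, and those of 10 smooth muscle and pericyte genes 1.17 times. The corneal endothelial sum came mostly from Kdr (164 of 249.6 normalized reads), and the corneal skeletal muscle sum mostly from Tnni2 (396 of 496). Of the smooth muscle and pericyte genes, 7 exceeded 3 reads in each library and 6 of these were called higher in the limbus, while Notch3, with 5755 and 3349 reads, made up most of the sum. The part of any of these tissues in the ratio of Lamb2 was not tested.

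**Figure D2:**
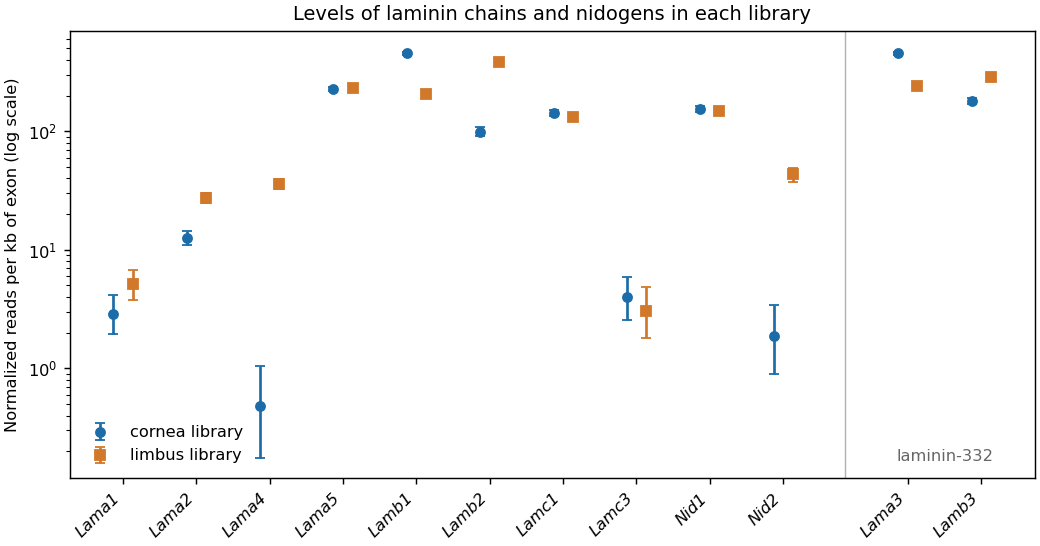
Normalized reads per kilobase of exon (log scale) in the cornea library (blue circles) and the limbus library (orange squares), with bars for the exact Poisson 95% interval. The 10 genes are on the left and Lama3 and Lamb3 of laminin-332 on the right. Lama4 (0.48 and 36.1) and Nid2 (1.87 and 43.2) show the widest gaps, Lamb1 (456 and 206) and Lamb2 (99.4 and 385) cross, and the points of Lama5 (226 and 233) and Nid1 (154 and 148) nearly coincide.

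No γ chain was called at 2-fold. Lamc1 encodes the γ1 chain, the partner of nearly all laminins outside laminin-332. Lamc1 (chromosome 1, 153218922 to 153332786, minus strand) had 1220 corneal and 1050 limbal reads, or 1180 and 1085 normalized reads. Its log2 ratio of -0.12 had a CI of -0.24 to -0.0005, which ends just below 0. With a trimmed mean of M-values the interval included 0, and scaled to total reads the sign turned, to 0.085. Its levels were 143 (135 to 151) and 131 (123 to 139) per kilobase. Lamc3 encodes the γ3 chain, a rare γ chain known from the nervous system, retina and skin. Lamc3 (chromosome 2, 31887291 to 31946539, plus strand) had 25 corneal and 18 limbal reads, or 24.2 and 18.6 normalized reads. Its log2 ratio of -0.38 had a CI of -1.34 to 0.55, and these few reads could not show a difference. Lamc3 was low in both libraries, at 3.97 (2.57 to 5.86) and 3.05 (1.81 to 4.83) per kilobase, and its exons share 382 bases with the antisense gene Gm13441.

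The nidogens, the linkers between laminin γ1 and collagen IV, differed from each other in their distribution. Nid1 (chromosome 13, 13437551 to 13512269, plus strand) had 1102 corneal and 992 limbal reads, or 1066 and 1025 normalized reads. Its log2 ratio was -0.06 (95% CI -0.18 to 0.07), and 0.15 with an interval above 0 when scaled to total reads. Its levels were 154 (145 to 163) and 148 (139 to 157) per kilobase, close to those of Lamc1 in both libraries. Nid2 (chromosome 14, 19751265 to 19811787, plus strand) had 10 corneal and 216 limbal reads, or 9.67 and 223 normalized reads. It was 23.1-fold higher in the limbus, or 4.53 as a log2 ratio (95% CI 3.62 to 5.61). Nid2 stood at percentile 99.3 of the genes that exceeded 3 reads in each library. Its levels were 1.87 (0.90 to 3.44) and 43.2 (37.6 to 49.3) per kilobase. Of all nidogen reads, Nid2 held 0.899% (95% CI 0.432 to 1.65) in the cornea and 17.9% (15.8 to 20.2) in the limbus, so Nid1 remained the main nidogen in both. Exons of Nid2 share 437 bases with Rtraf, a protein-coding gene on the opposite strand, which had 3409 corneal and 2177 limbal reads, while Nid2 had 10 and 216. Exons of Nid1 share 143 bases with the antisense gene Gm48682. The part of the higher endothelial marker sum of the limbus in the ratio of Nid2 was not tested.

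Levels of different genes were ordered by normalized reads per kilobase of exon. In the cornea the order was Lamb1, Lama5, Nid1, Lamc1, Lamb2, Lama2, Lamc3, Lama1, Nid2 and Lama4. Nid1 and Lamc1 had overlapping intervals, as had each neighboring pair among the last 4. The exact interval of the ratio of neighboring levels, added after the data were seen, included 1 for Nid1 and Lamc1, for Lamc3 and Lama1 and for Lama1 and Nid2, which were thus not told apart, whereas Nid2 stood 3.89 times (1.28 to 13.01) above Lama4. In the limbus the order was Lamb2, Lama5, Lamb1, Nid1, Lamc1, Nid2, Lama4, Lama2, Lama1 and Lamc3. Overlapping intervals were found there for Nid1 and Lamc1, for Nid2 and Lama4, and for Lama1 and Lamc3. The interval of the ratio included 1 for Lama1 and Lamc3 only, while Nid1 stood 1.13 times (1.03 to 1.23) above Lamc1 and Nid2 1.19 times (1.01 to 1.41) above Lama4. Lamb2 held rank 5 in the cornea and rank 1 in the limbus, Nid2 ranks 9 and 6, and Lama4 ranks 10 and 7. The exon length used for Lama4, Lamb1 and Lama2 was 2.0, 1.71 and 1.70 times that of the longest transcript, since all annotated exons were joined. With the longest transcript the limbal levels of Lama4, Lamb1 and Lama2 were 72.2, 354 and 46.7 per kilobase. Lamb1 then stood above Lama5 in the limbus and Lama4 above Nid2, and the corneal order was as given. Lama2 also ranked above Nid2, but their levels were close, at 46.7 and 45.8, and no interval of this ratio was taken.

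Lama3 and Lamb3 of laminin-332 were compared with these chains because they belong to the same α and β groups. Neither was called at 2-fold. Lama3 had 5032 corneal and 2484 limbal reads, or -0.92 as a log2 ratio (95% CI -0.99 to -0.85). Lamb3 had 1224 and 1820 reads, a log2 ratio of 0.67 (0.56 to 0.77). Within each chain group, shares were taken of the normalized reads per kilobase of exon, and those of the β chains differed most between the libraries. Lamb1 made up 62.1% of the β chains in the cornea and 23.5% in the limbus, Lamb2 13.5% and 44.0%, and Lamb3 24.4% and 32.5%. Among the α chains, Lama3 took 65.2% in the cornea against 44.2% in the limbus, and Lama5 took 32.5% and 43.1%. Lama4 and Lama2 together with Lama1 filled the remainder. Lama4 had 0.0692% in the cornea and 6.69% in the limbus, Lama2 1.82% and 5.08%, and Lama1 0.417% and 0.948%. The γ chains outside laminin-332 were nearly alike in both libraries, with Lamc1 at 97.3% and 97.7% and Lamc3 at 2.71% and 2.28% of their sum. Summed over the chains outside laminin-332, the γ chains had the lowest level, at 147 and 134 normalized reads per kilobase, against 242 and 302 for the α chains and 556 and 591 for the β chains. With the length of the longest transcript the β sum was 890 in the cornea and 770 in the limbus. The direction of the β sum thus depended on the length used. With the length of the longest transcript Lama4 made up 12.02% of the limbal α chains and Lamb2 36.0% of the limbal β chains, where it still ranked first.

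**Figure D3:**
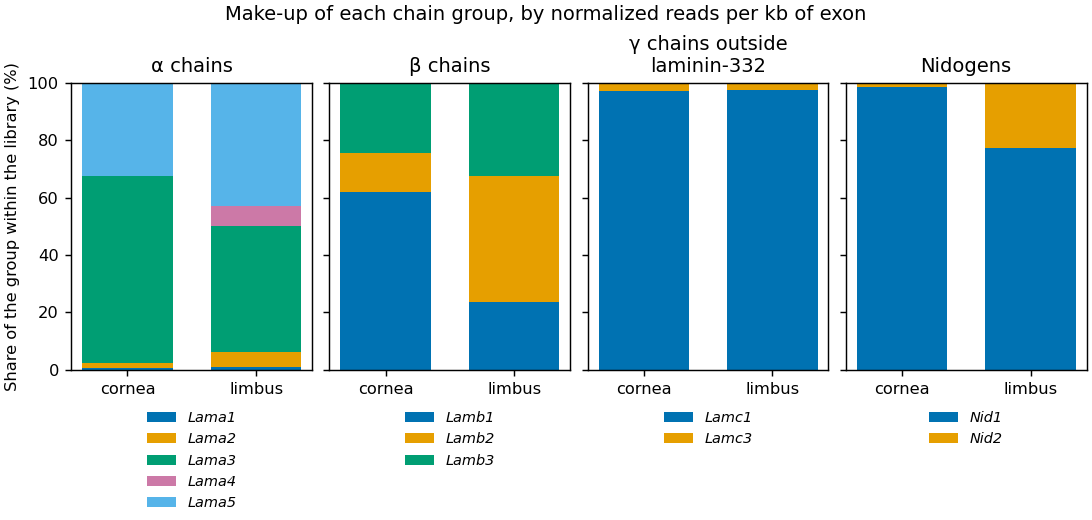
Share of each gene in its group within a library (y axis, percent of normalized reads per kilobase of exon) for the α chains, β chains, γ chains outside laminin-332 and nidogens, with the cornea as the left bar and the limbus as the right bar of each panel. The bar of Lamb1 shrinks from 62.1% to 23.5% while that of Lamb2 grows from 13.5% to 44.0%. Lama4 (6.69%) and Nid2 (22.6%) appear as broader segments in the limbus, and the γ chain bars are nearly the same.

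Genes that work with these laminins were described by list. Of 24 other basement membrane proteins, 14 were called higher in the limbus and 2 higher in the cornea, with a median log2 ratio of 1.30. The largest limbal differences were in Col15a1 (4 and 268 reads, log2 ratio 6.16) and Col18a1 (25 and 675 reads, 4.85), the collagens of vascular and epithelial basement membranes that carry heparan or chondroitin sulfate. Among the corneal ones was Frem2 (2152 and 493 reads, -2.03), of the Fraser complex below epithelia. Sparc, a collagen-binding matrix protein, had the most reads of the list, 14593 and 33955, and a log2 ratio of 1.31.

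Of 11 laminin receptors and their partners, 10 exceeded 3 reads in each library, 2 were called higher in the limbus and 1 higher in the cornea, and their median log2 ratio was -0.09. Mcam, an endothelial and pericyte adhesion molecule that binds laminin-411, had 14 corneal and 322 limbal reads, a log2 ratio of 4.62. Itga1, the α1 subunit of a collagen and laminin receptor, had 44 and 91 reads (1.14). Itga2, of the same kind, was higher in the cornea, with 308 and 83 reads (-1.80). Itga6, the α subunit of the main epithelial laminin receptors, had 6905 and 3401 reads (-0.93). Its hemidesmosomal partner Itgb4 had the most reads, 7893 and 6196 (-0.25). Itga7, the α subunit of the laminin receptor of muscle fibers, was named after its values were seen and had 3 and 113 reads.

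The 6 netrins, secreted or membrane-bound proteins whose ends resemble those of laminin chains, had 5 genes that exceeded 3 reads in each library. Of these, 2 were called higher in the limbus and none in the cornea, and the median log2 ratio was 0.36. Ntng2 had 8 and 32 reads (log2 ratio 2.10) and Ntn3 had 15 and 50 (1.83). Ntn4, a netrin that binds the laminin γ1 chain, had the most reads, 1376 and 1124, and a log2 ratio of -0.20. Ntng1 had 33 and 32 reads (0.05). Of 12 enzymes that build the laminin-binding sugar of dystroglycan, 11 were matched in the table, and 1 was called higher in the cornea and none in the limbus, at a median of 0.20. Rxylt1 had 808 and 478 reads (log2 ratio -0.66). Large2, which extends the sugar, stood at the limbal end with 300 and 452 reads (0.69), and B3galnt2 had the most reads, 1083 and 706. The receptors and enzymes thus had medians near that of all genes (-0.05), and the other basement membrane proteins had a higher one. With 1 library per tissue, no test of these lists was made.

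**Figure D4:**
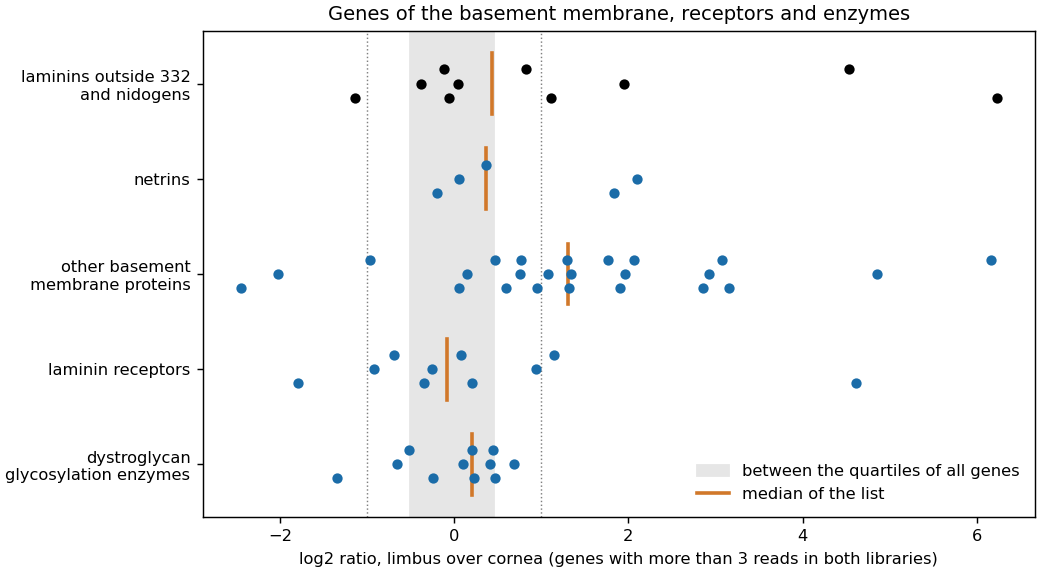
Log2 ratio of limbus over cornea (x axis) for each gene that exceeded 3 reads in each library, by list, with the 10 laminin and nidogen genes in black, an orange bar at the median of each list, and a grey band between the quartiles of all genes. The median was 1.30 for the other basement membrane proteins, beyond the grey band. Those of the 10 genes (0.43), netrins (0.36), receptors (-0.09) and dystroglycan enzymes (0.20) lie within the grey band.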

How the data were processed

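Stranded total RNA libraries of pooled corneal buttons and limbal rims were processed by the authors in CLC Genomics Workbench with GRCm38 (mm10) as the genome, and a trimmed mean of M-values is named as the normalization. For each gene, the 1 table that the authors deposited holds the mean normalized signal over the libraries (reads divided by a size factor), the cornea over limbus log2 fold change and its error, p-values and adjusted p-values. These fold changes and p-values are not reported here. The labels list 8 samples, 4 per tissue, but the means were built from 1 library per tissue (109 cornea reads being worth 102 limbus reads), so the samples of a tissue entered as 1 library and no test across replicates was made. How reads were counted, and whether by strand, is not given in the sources used here.

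Read numbers per library were recovered from the steps of each mean. Where a mean allowed several pairs of read numbers, the pair was taken whose predicted fold change and standard error, from a shrunken negative binomial model, came closest to the deposited log2 values. For the 10 genes, the chosen pairs missed them by at most 1.19e-05 in sum and every other pair kept for comparison by at least 0.003. Of all 17442 genes with a mean above 0, 17147 (98.3%) were met within 0.001 in sum, and 292 genes were placed with the help of the dispersion of genes like them. The method was tested on data simulated with the same model, prior and size factors. Such a test cannot show that the deposited table was built with this model. Read numbers are thus derived values. The deposited accession column was not used, and genes were matched by symbol, with 6 listed genes found under an older symbol.

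Levels were divided by the joined exon length in the GENCODE annotation of GRCm38, and promoters were taken from RefSeq. The members and all lists were chosen with earlier results of these data known. Named genes were the members, laminin-332 genes and, of every other list, the 2 highest and the 2 lowest log2 ratios among genes that exceeded 3 reads in each library and the gene with the most reads. The values of some of these genes are not reported here. Alternatives were scaling to total reads, a trimmed mean of M-values (trimming 30% of ratios and 5% of means), a pseudocount of 1, a log2 limit of 0.5, a mean of at least 50, the next best pair of reads, the longest transcript as length, and reads not divided by length. Python 3.11.15 with numpy 2.4.6, scipy 1.17.1 and pandas 2.3.3 was used.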

Additional observations from a re-analysis of the deposited data

How the results depend on the processing

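Every log2 ratio was 0.21 higher with scaling to total reads and 0.02 higher with a trimmed mean of M-values. Under total reads Lamc1 turned to 0.085, and the number of the 10 genes called higher in the cornea fell to 0, since Lamb1 came to -0.94. All 23 ratios and counts recomputed with the trimmed mean, and all 23 with the pseudocount, kept their direction and their side of the 2-fold limit. Of the 10 genes, 5 were called higher in the limbus under total reads and with a log2 limit of 0.5 (Lama1 in addition), and 4 with a mean of at least 50. The next best pair of reads gave another ratio for 7 of the 10 genes (Lama4 1.57, Lamb2 5.21, Lamb1 -7.30) but missed the deposited values by 0.003 or more. By the interval of their ratio, added after the data were seen, 3 pairs of neighbors in the corneal order and 1 in the limbal order were not told apart, against 4 and 3 by overlap of their intervals. With the longest transcript as length, 5 of the 10 genes kept their rank in the limbus and 10 in the cornea. Leaving out a library was not possible with 1 per tissue. No paired analysis was possible because the deposited table holds no value for the numbered samples. Lama4 and Nid2 rest on 6 and 10 corneal reads, and Lamc3 on 25 and 18 reads in all.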

Other observations

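Genes of keratocytes and stromal fibroblasts had ratios on both sides, and those of the corneal endothelium were all above 0. Kera, the keratocan gene of keratocytes, had 12119 corneal and 1423 limbal reads (log2 ratio -2.99), while Thy1, a fibroblast surface protein, had 11 and 433 (5.39) and Lum was even (8471 and 7850, -0.01). Of 5 genes of the corneal endothelium, 4 had a limbal difference beyond counting error and 3 were called at 2-fold, among them Col8a2, a collagen of Descemet's membrane, with 1319 and 4323 reads (1.81). Summed normalized reads were 1.44 times as high in the limbus for the stromal list, 2.67 times for the endothelial list, 5.41 times for melanocytes and pigment epithelium, 1.67 times for leukocytes, 18.7 times for lymphatic endothelium and 5.25 times for limbal and conjunctival epithelium, and 0.431 times for the corneal epithelium. Most of the leukocyte sum came from Itgam, with 6003 and 8793 reads (0.65). Of the leukocyte genes, 5 exceeded 3 reads in each library and 3 of these were called higher in the limbus, among them Csf1r (2.75). In the corneal epithelial list Krt14, a basal keratin, had 9952 and 53574 reads (2.52) against Slurp1 with 52346 and 8383 (-2.55).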
